A study of Caenorhabditis elegans with 2 samples.

Results

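The 47 protein-coding genes of Caenorhabditis elegans whose Ensembl symbol starts with rpl- were examined in a chromatin immunoprecipitation (ChIP-seq) experiment on HIM-1. The rule picks them by symbol from 19973 protein-coding genes and uses no measured value, although the family was singled out with earlier results of these data known. HIM-1 is the worm SMC1, a core subunit of the cohesin ring. Both samples came from strain YL576, a transgenic line in which HIM-1 carries a C-terminal GFP-FLAG tag (HIM-1-eGFP). Chromatin was precipitated with an anti-GFP antibody by the labels' description, while their antibody field names him-1. The worms were whole hermaphrodites at the L4/young adult stage, grown for 51 hours after synchronization by starvation as L1 larvae that followed bleaching. The labels do not say whether untagged HIM-1 was also present or which promoter drove the fusion. The 2 samples are labelled biological replicates 1 and 2 and form 1 group, so no contrast between conditions exists and no p-value is given. In whole worms, binding in the germ line and in somatic tissue cannot be told apart.

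The proteins encoded by these genes form, with ribosomal RNA, the large subunit of the cytosolic ribosome. That subunit holds the peptidyl transferase centre, where peptide bonds are made, the tunnel through which the new chain leaves, and the stalk that recruits translation factors. Ribosomal protein genes are among the most highly transcribed genes of growing cells. Cohesin holds sister chromatids together and also shapes chromatin in interphase. In C. elegans, many messenger RNAs receive a spliced leader by trans-splicing, which removes the original start of the transcript. An annotated 5' end can therefore lie downstream of the site where transcription begins.

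The analysis used 4 peak lists in ce11. Each replicate had its own list, with 16213 entries for replicate 1 and 15469 for replicate 2, and a pooled list from both held 12228. These 3 lists include background entries. The optimal list, thresholded by the irreproducible discovery rate (IDR) procedure, held 1797 peaks. A gene was counted as bound in a list when a summit of that list lay within 1000 bp of the 5' end of one of its protein-coding transcripts. Where several did, the summit with the highest signal was used. The signal value is that of the authors' caller, on a scale that is not given, so it was compared only within a list. Read depth is unknown. Negative positions, and the word upstream, refer to the direction of the rpl gene.

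The sites of the 4 rpl genes with the highest optimal signal are shown first, since they rank 1, 4, 10 and 21 in the whole optimal list. Each sequence holds the summit and 100 bases on each side of it, in the direction of the rpl gene, from the RefSeq copy of WBcel235 (ce11). The site of rpl-3 lies at III:3867469-3867669 (plus strand), that of rpl-15 at IV:654830-655030 (minus strand), that of rpl-35 at III:7854587-7854787 (plus strand) and that of rpl-20 at IV:4750008-4750208 (minus strand). None of the 4 overlaps an annotated exon of a protein-coding gene. Capitals mark a 7-base word that is described further on, which rpl-3 and rpl-15 hold and rpl-35 and rpl-20 do not.
rpl-3: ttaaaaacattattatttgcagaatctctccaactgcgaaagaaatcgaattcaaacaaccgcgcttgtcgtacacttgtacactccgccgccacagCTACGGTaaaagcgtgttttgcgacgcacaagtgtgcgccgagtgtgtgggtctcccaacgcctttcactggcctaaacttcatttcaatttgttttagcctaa
rpl-15: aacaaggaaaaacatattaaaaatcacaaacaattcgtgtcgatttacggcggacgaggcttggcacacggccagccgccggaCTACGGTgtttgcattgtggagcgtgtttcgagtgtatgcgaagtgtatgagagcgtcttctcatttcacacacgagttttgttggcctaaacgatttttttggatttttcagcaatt
rpl-35: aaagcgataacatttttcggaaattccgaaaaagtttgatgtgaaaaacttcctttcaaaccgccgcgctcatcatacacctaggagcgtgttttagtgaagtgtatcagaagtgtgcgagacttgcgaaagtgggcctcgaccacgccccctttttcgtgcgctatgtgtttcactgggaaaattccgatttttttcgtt
rpl-20: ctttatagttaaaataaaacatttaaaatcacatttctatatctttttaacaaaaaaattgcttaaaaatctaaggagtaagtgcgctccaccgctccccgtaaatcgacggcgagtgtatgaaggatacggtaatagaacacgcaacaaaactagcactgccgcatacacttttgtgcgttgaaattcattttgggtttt

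Most rpl genes had an optimal HIM-1 peak near a 5' end. The count was 27 of 47 (57.4%), while 6.08% of all protein-coding genes had one. It was 24 with the 500 bp window (51.1%, against 4.5% of all genes). With the 250 bp window it was 6 (12.8%, against 2.85%). Most rpl peaks were therefore reached only by a window wider than 250 bp. The count was 29 when the same number of entries was taken from the list of replicate 2 alone, and 24 from that of replicate 1 alone.

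**Figure D1:**
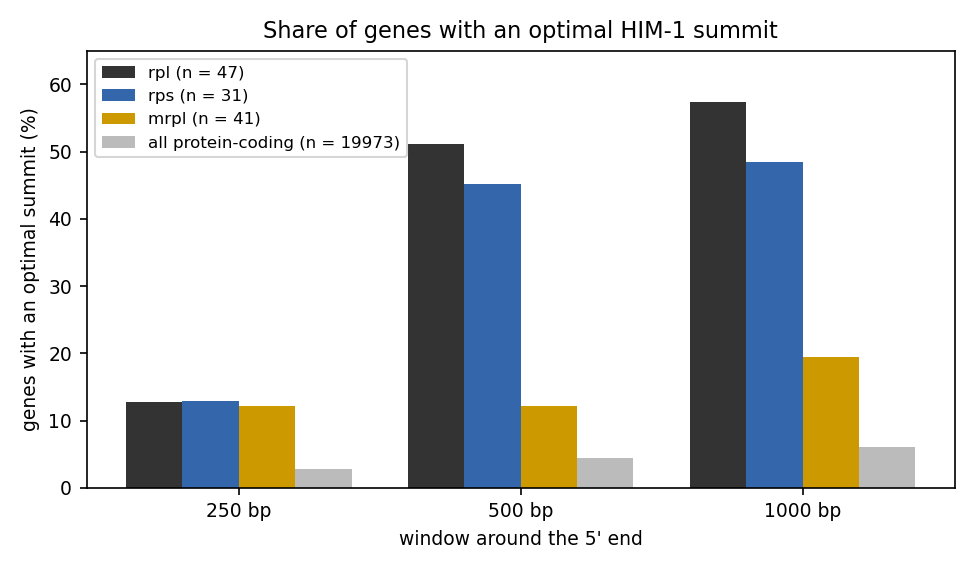
Share of genes (y axis, %) with an optimal summit within 250, 500 or 1000 bp of a 5' end (x axis), for rpl, rps, mrpl and all protein-coding genes; bars are counts over whole lists and carry no error. The rpl share rose from 12.8% to 51.1% between the 250 bp and 500 bp windows, and the mrpl share was 12.2% in both.

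In the unthresholded lists nearly all rpl genes had an entry. A pooled summit lay within 1000 bp of 43 of the 47 genes (91.5%), against 25.16% of all protein-coding genes. Replicate 1 had one at 43 genes (91.5%, against 29.9%) and replicate 2 at 42 (89.4%, against 31.5%). Both replicates had one at 39 (83%, against 20.4%). The only member with no summit in any of the 4 lists was rpl-16, whose closest optimal summit lay 1807 bp upstream (signal 114).

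The 27 genes shared 26 distinct peaks, because rpl-41.1 and rpl-41.2 had the same one. Their optimal signals ran from 102 to 1042 with a median of 161. The 980 other optimal peaks within 1000 bp of a protein-coding 5' end had a median of 147. The median rank of the rpl peaks was 723.5, against 877 for those other peaks, so the typical rpl peak was only slightly higher. A small number stood far above the rest. Distinct rpl peaks made up 3 of the 10 highest of the genome, 4 of the 25 highest, 5 of the 100 highest and 10 of the 500 highest. In the whole optimal list they were 26 of 1797. The count among the 500 highest was close to that share, and the count among the 10 highest was far above it.

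Of the 4 genes assigned to a group for proteins near the peptidyl transferase centre and the core of the ribosomal RNA, 1 was bound. This was rpl-3, whose protein reaches from the surface towards the catalytic centre. Its peak (III:3867422-3867738) had the highest signal of the optimal list at 1042, and also ranked 1 in each replicate, with signals of 625 in replicate 1 and 414 in replicate 2. The replicate summits lay 290 and 269 bp upstream. The other members of this group, rpl-2, rpl-4 and rpl-10, had no optimal peak. The pooled entry of rpl-4, whose protein lines the exit tunnel, had a signal of 90.3 and rank 2232, with 30.1 in replicate 1 (rank 9181) and 55.7 in replicate 2 (rank 1146). The replicates thus placed rpl-4 very differently.

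Of the 3 genes for proteins of the 5S particle, which joins the 5S ribosomal RNA to the subunit, 2 were bound. On X, rpl-11.2 had a signal of 238 (rank 244), with 146 in replicate 1 (rank 232) and 95.6 in replicate 2 (rank 297). Both replicates thus placed it among their strongest entries. Its paralogue on V, rpl-11.1, had only a pooled entry of signal 47.0, 522 bp downstream of a 5' end, and no entry in replicate 2. The optimal peak of rpl-5 was close to the threshold, at signal 102 (rank 1782). It rested mainly on replicate 2, where it ranked 810 (signal 65.3), whereas in replicate 1 it ranked 8685 (signal 30.8).

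The gene for the stalk base protein, rpl-12, had a peak of signal 288 (rank 136) whose summit lay 2 bp from a 5' end. Its signal was 157 in replicate 1 (rank 180) and 134 in replicate 2 (rank 95). Of the 7 genes assigned to a group for proteins around the tunnel exit, 1 was bound. This was rpl-35, whose peak (III:7854587-7854841) had a signal of 756 and rank 10. The replicates gave rpl-35 signals of 447 (rank 10) and 302 (rank 8). The other genes of this group, rpl-17, rpl-19, rpl-25.1, rpl-25.2, rpl-26 and rpl-31, had no optimal peak. The group need not hold every protein of the tunnel, since rpl-4 was placed elsewhere.

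The remaining 32 genes, which were assigned to no functional group, held 22 of the bound members. The strongest was rpl-15, whose protein also lies deep in the ribosomal RNA core, so the first group does not hold every core protein. Its peak (IV:654747-655075) had a signal of 842 and rank 4, with 527 in replicate 1 (rank 6) and 310 in replicate 2 (rank 5). The peak of rpl-20 (IV:4749973-4750204) followed with 610 and rank 21, at 373 (rank 19) and 238 (rank 17). Both genes therefore held nearly the same place in each replicate.

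The next peaks were much lower. At rpl-27 the signal was 357 (rank 66), with 223 in replicate 1 (rank 64) and 141 in replicate 2 (rank 74). This summit was 749 bp downstream of the rpl-27 5' end and only 29 bp upstream of that of egl-30, which encodes a G protein alpha subunit. The peak of rpl-22 had a signal of 199 (rank 423; replicate ranks 634 and 282), that of rpl-43 had 195 (rank 446; 643 and 236) and that of rpl-7A had 190 (rank 478; 600 and 479). The shared peak of rpl-41.1 and rpl-41.2 had a signal of 180 (rank 572; 544 and 516). It lay 291 bp upstream of rpl-41.2 and 811 bp downstream of rpl-41.1.

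A further 7 genes lay in the middle of the members' range. The signal was 174 at rpl-24.2 (rank 609; replicate ranks 565 and 858), a relative of a yeast ribosome assembly factor. At rpl-29 it was 162 (rank 714; 543 and 1055), and at rpl-9 it was 159 (rank 733; 645 and 946). At rpl-14 it was 156 (rank 767; 760 and 728) and at rpl-38 it was 153 (rank 806; 1133 and 637). The values were 148 at rpl-23 (rank 870; 877 and 945), whose protein faces the small subunit, and 141 at rpl-21 (rank 956; 1214 and 634). For these 7 genes, all replicate ranks lay within the 1797 highest entries of the replicate's own list.

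The lowest optimal peaks followed. The signal was 134 at rpl-13 (rank 1052; replicate ranks 1103 and 1409) and 134 at rpl-32 (rank 1067; 937 and 1710). At rpl-33 it was 130 (rank 1134; 1146 and 1648), and at rpl-36.A it was 120 (rank 1295; 1946 and 1134). At rpl-36 it was 119 (rank 1320; 1752 and 1079), at rpl-28 it was 111 (rank 1532; 1891 and 1494), and at rpl-7 it was 102 (rank 1778; 2688 and 1263). The optimal summit of rpl-7 lay 465 bp upstream, but its replicate summits lay 270 and 323 bp upstream. A second pooled entry of rpl-7, with a signal of 99.7 (rank 1866), lay 259 bp upstream. Just below the optimal threshold, the highest member without an optimal peak was rpl-6, 329 bp upstream, with a pooled signal of 98.4 (rank 1899). Its highest entry in replicate 1 had a signal of 59.7 (rank 1940) at 331 bp upstream. In replicate 2 the highest entry, of signal 34.6 (rank 2958), was at another site, 463 bp downstream, and the upstream entry had 32.9 (rank 3325) at 249 bp.

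**Figure D2:**
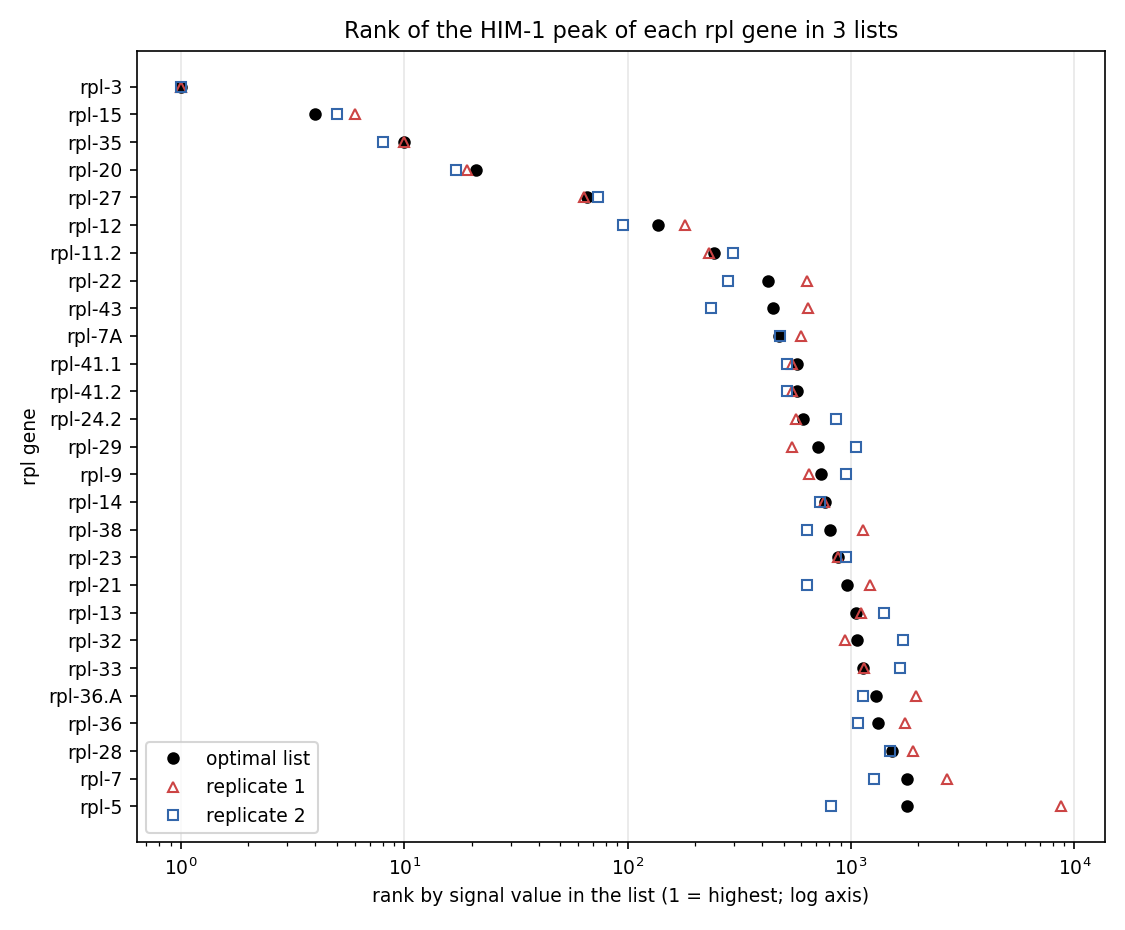
Rank by signal value (x axis, log scale, 1 is highest) of the peak of each of the 27 bound rpl genes (y axis) in the optimal list (filled circles), replicate 1 (triangles) and replicate 2 (squares). The ranks of rpl-3, rpl-15, rpl-20 and rpl-35 were within the 21 highest in each list, and rpl-5 ranked 810 in replicate 2 but 8685 in replicate 1.

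All 27 genes had an overlapping entry in both replicates' lists. So did all 1797 optimal peaks, so this does not set the rpl genes apart. The entry ranked within the 1797 highest in replicate 2 for all 27 and in replicate 1 for 23, the exceptions being rpl-5, rpl-7, rpl-28 and rpl-36.A. The ratio of replicate 1 to replicate 2 signal had a median of 1.38 and ran from 0.471 at rpl-5 to 1.89 at rpl-32, with a median of 1.41 over all optimal peaks. The summits of both replicates lay close together, with a median offset of 24 bp and a largest offset of 103 bp at rpl-14. For 23 of the 27 the offset was at most 50 bp. The 2 replicates share 1 control, whose part in this overlap was not tested.

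Most summits lay upstream of the gene and apart from its 5' end. Their median position was -330 bp, and the quartiles were 395.5 and 245.5 bp upstream. Of the 27 genes, 18 (66.7%) had the summit 251 to 500 bp upstream, against 25% of the 1214 protein-coding genes with an optimal summit. Those genes had a median of -236 bp, with quartiles 439 and 103.25 bp upstream. Only 6 of the rpl summits (22.2%) lay 0 to 250 bp upstream, against 41.1% of all bound genes.

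The 3 summits closest to the gene were those of rpl-12, rpl-7A at 63 bp and rpl-24.2 at 166 bp. The other 3 within 250 bp were near the limit, with rpl-22 at 240 bp, rpl-9 at 245 bp and rpl-13 at 246 bp. Outside the upstream 500 bp lay only rpl-43 at 735 bp upstream and the downstream summits of rpl-27 and rpl-41.1. The farthest summit inside the 1000 bp window was therefore at 811 bp, and the nearest one outside it, for a gene with none inside, was the rpl-16 summit at 1807 bp.

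**Figure D3:**
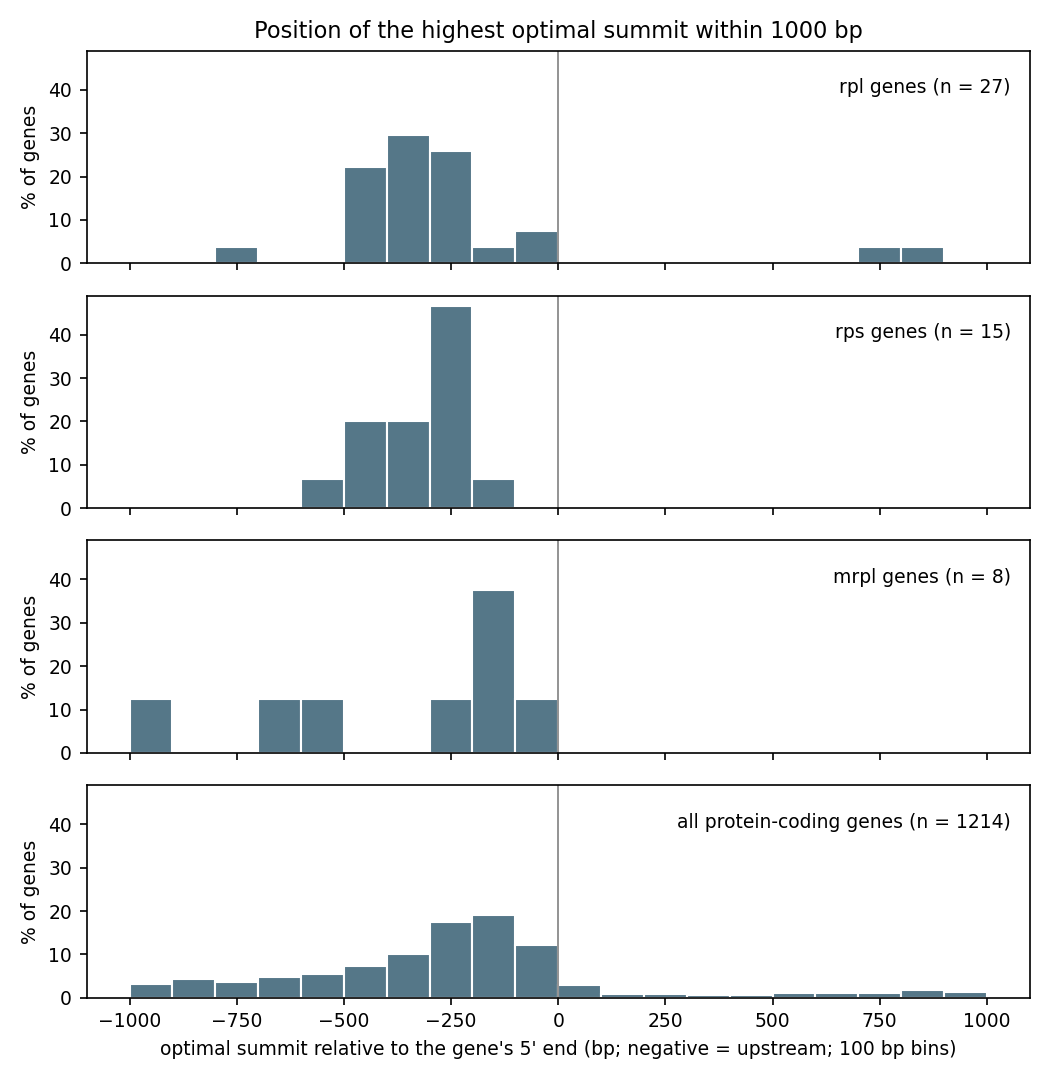
Position of the highest optimal summit within 1000 bp relative to the gene's 5' end (x axis, bp, negative is upstream, 100 bp bins) as a share of bound genes (y axis, %), for rpl, rps, mrpl and all protein-coding genes. The rpl summits gathered between 200 and 500 bp upstream, with 66.7% from 251 to 500 bp, while the summits of all bound genes lay nearer to the 5' end.

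Low-signal entries also lay mostly upstream. Of the 20 rpl genes without an optimal peak, 16 had a pooled entry, with signals from 45.8 to 98.4 and a median of 67.7. The lowest signal of the optimal list was 102. The median position of these 16 was -343 bp, and 11 (68.8%) lay 251 to 500 bp upstream. Among all 3812 protein-coding genes with a pooled but no optimal summit the share was 18.4%. After rpl-6, the highest of them were rpl-24.1 with a pooled signal of 95.4 at 227 bp upstream (ranks 2555 and 1502 in the replicates) and rpl-4.

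Replicate support for these 20 genes was uneven. Both replicates had an entry within 1000 bp at 12 of them, namely rpl-1, rpl-2, rpl-4, rpl-6, rpl-10, rpl-17, rpl-24.1, rpl-26, rpl-34, rpl-37, rpl-39 and rpl-42. These entries need not mark the same site, since those of rpl-10 lay 336 bp upstream in replicate 1 and 972 bp downstream in replicate 2. Replicate 1 alone had one at rpl-11.1, rpl-18, rpl-25.1 and rpl-25.2, and replicate 2 alone at rpl-19, rpl-30 and rpl-31. A pooled entry was missing at rpl-16, rpl-18, rpl-19 and rpl-30. The pooled summits of rpl-37 and rpl-42 lay 927 and 979 bp upstream, and those of rpl-11.1 and rpl-25.1 were downstream.

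**Figure D4:**
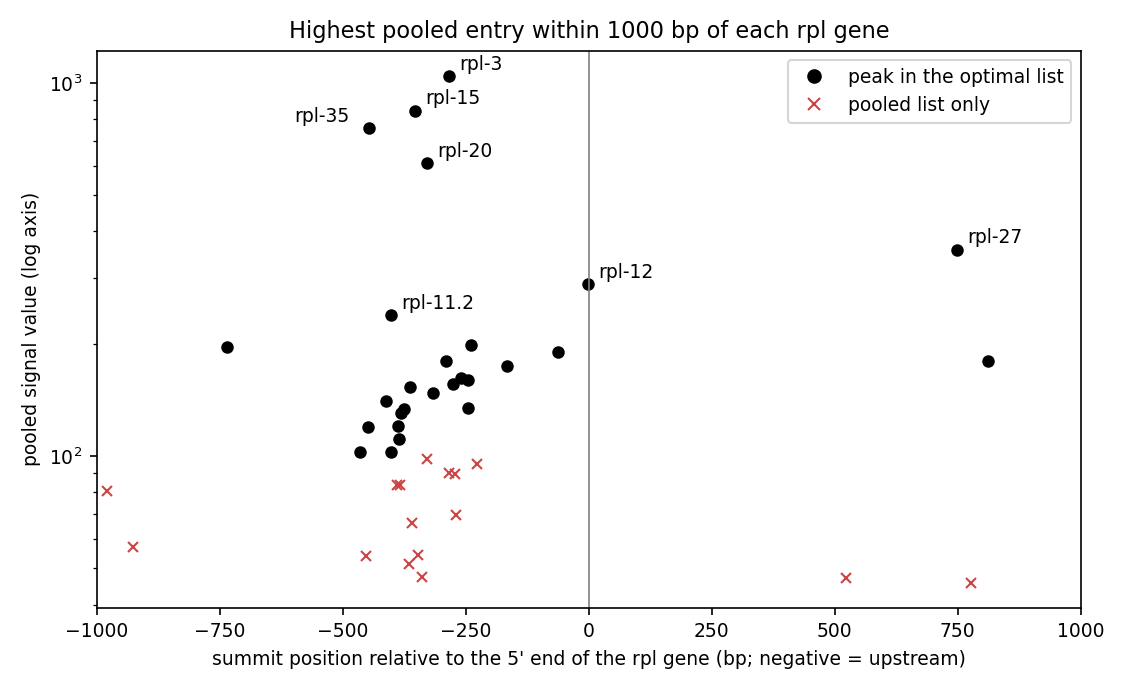
Pooled signal value (y axis, log scale) against the position of the highest pooled summit relative to the 5' end of the rpl gene (x axis, bp, negative is upstream), for the 43 rpl genes with an entry; filled circles are in the optimal list and crosses are not. Both kinds of point gathered between 200 and 500 bp upstream, and rpl-3, rpl-15, rpl-20 and rpl-35 stood above all others.

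Many of these sites were shared with another gene. For 10 of the 27 genes the 5' end nearest to the summit belonged to another gene. At rpl-20 it was Y17G9B.5 at 132 bp. At rpl-22 it was ify-1, which encodes securin, the inhibitor of the protease that cleaves cohesin, at 197 bp. At rpl-36 it was the small-subunit gene rps-14 at 213 bp, and at rpl-28 it was the mitochondrial ribosomal protein gene mrpl-49 at 132 bp. At rpl-36.A it was nuo-1, a respiratory complex I gene, at 245 bp. At rpl-21, rpl-33 and rpl-43 it was C14B9.10 (212 bp), farl-11 (146 bp) and Y48B6A.1 (186 bp). A binding site in such a shared stretch cannot be assigned to one of the genes. When only the gene with the nearest 5' end was counted, an alternative added after the data were seen, 17 of 47 rpl genes were bound (36.2%), and 4.63% of all protein-coding genes.

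The nearest protein-coding gene upstream was on the opposite strand for 32 of the rpl genes and on the same strand for 15. Neighbours were taken at any distance and could overlap the rpl gene, so the 32 are not all divergent pairs. The opposite-strand gene left no gap at rpl-24.2 and rpl-37, and lay 11497 bp away at rpl-35. An optimal peak was found at 17 of the 32 (53.1%) and 10 of the 15 (66.7%). Over all protein-coding genes the shares were 8.48% with an opposite-strand and 4.02% with a same-strand gene upstream. Sites with no 5' end of another protein-coding gene within 1000 bp were those of rpl-3, rpl-11.2, rpl-13, rpl-14, rpl-24.2, rpl-32, rpl-35 and rpl-38. The optimal peaks at rpl-3 and rpl-35 were thus both among the highest of the genome and alone at their gene.

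The rpl sites lay almost wholly between genes. Of the 26 distinct summits 25 were intergenic, and 1, that of rpl-24.2, lay in an intron of C03D6.1. Of the 980 other promoter peaks 70.5% were intergenic and 20.2% intronic. No rpl summit lay within 250 bp of a tRNA, snoRNA, snRNA, rRNA or miRNA gene, whereas 103 of the 980 others (10.5%) did. By chromosome, rpl genes were bound at 7 of 15 on I (8.93% of all protein-coding genes there), 6 of 9 on II (5.51%) and 6 of 9 on III (8.86%). They were bound at 5 of 7 on IV (5.18%), 2 of 5 on V (3.52%) and 1 of 2 on X (6.85%). Peak width was the commonest value, 470 bp, for 22 of the 26. The 4 narrower ones, from 232 to 329 bp, were those of rpl-3, rpl-15, rpl-20 and rpl-35, the same 4 with the highest signal. Of the 980 other promoter peaks, 22 (2.24%) were also narrower than 470 bp.

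Sequence within 100 bp of the rpl summits had a median GC content of 41.8%, against 45.3% at the 980 other promoter peaks. Motifs were searched on both strands in the same windows. GAGAGA was found at 8 of 26 rpl summits (30.8%) and 40.4% of the others, the GC-box core GGGCGG at 1 (3.85%) and 12.7%, and CTGCGTC at 2 (7.69%) and 13.6%. TATAA was found at 4 (15.4%) and 20.5%, and the E-box CACGTG at 1 (3.85%) and 3.88%. The cyclic AMP response element TGACGTCA was at none and at 1.73%. TTTTCAG, which matches the worm 3' splice site, was found at 8 (30.8%) and 11.5%. At the pooled summits of rpl genes without an optimal peak it was at 3 of 16 (18.8%), against 18.4% of such summits at other genes. It was at 2 of the 14 optimal peaks of rps genes not shared with an rpl gene (14.3%). With 26 windows, 1 more or fewer moves a share by several percentage points.

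Beyond these motifs, a further word was found by ranking all 7-base words by how much commoner they were at rpl summits than at the other promoter peaks, with 5 added to the count at the others. The first was ACCGTAG, or CTACGGT on the other strand, at 8 of 26 rpl summits (30.8%) and 20 of 980 others (2.04%). The second of the ranking, CCGTAGC, overlaps it by 6 bases and is not treated apart. Because the word was chosen from these 26 windows, that contrast only describes them. The pooled summits below took no part in the choice. The word was found at 4 of the 16 pooled summits of rpl genes without an optimal peak (25%), against 1.05% of 3229 such summits at other genes. Among the 980 others, it was found at 3 of the 14 optimal peaks of rps genes not shared with an rpl gene (21.4%).

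Around the word, the sites are shown with 12 bases on each side, in the direction of the rpl gene and with the word in capitals, for 8 of the 12 members that hold it at a summit. The first 6 come from optimal summits and the last 2, rpl-6 and rpl-34, from pooled entries. They lie at III:3867554-3867584 (rpl-3), IV:654929-654959 (rpl-15), X:2242947-2242977 (rpl-11.2), II:5055382-5055412 (rpl-22), II:7105180-7105210 (rpl-33), II:14154557-14154587 (rpl-43), III:7208072-7208102 (rpl-6) and IV:12268563-12268593 (rpl-34).
rpl-3: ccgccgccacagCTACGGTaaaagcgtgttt
rpl-15: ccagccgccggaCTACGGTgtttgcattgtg
rpl-11.2: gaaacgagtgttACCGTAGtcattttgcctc
rpl-22: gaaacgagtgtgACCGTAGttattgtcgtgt
rpl-33: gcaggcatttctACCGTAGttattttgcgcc
rpl-43: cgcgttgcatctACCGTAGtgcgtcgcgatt
rpl-6: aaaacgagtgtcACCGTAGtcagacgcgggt
rpl-34: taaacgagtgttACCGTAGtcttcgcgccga

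The distance of the word from the summit varied among members. At rpl-3 its centre was at the summit itself (0 bp), and at the 8 optimal sites the median distance was 14 bp. For 7 of the 8 it was at most 21 bp, a limit taken from these values, the exception being rpl-11.2 at 59 bp. At the 4 pooled summits it was 17 bp at rpl-17, 31 bp at rpl-6, 37 bp at rpl-34 and 58 bp at rpl-25.2. At the 20 other promoter peaks with the word the median was 44 bp, with a range of 11 to 93 bp, and 5 of 20 were within 21 bp. The members whose site is not shown, rpl-14 and rpl-27 at optimal and rpl-17 and rpl-25.2 at pooled summits, are on chromosome I.

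In 4 of the sites shown (rpl-11.2, rpl-22, rpl-6 and rpl-34) the bases CGAGTGT precede the word, with 1 base between them. This joint pattern, also picked after the sequences were seen, occurs 10 times in the 6 chromosomes. Each of the 10 lies within 500 bp upstream of its nearest protein-coding 5' end, and 5 lie within 1000 bp of an rpl gene. The fifth of these is 264 bp upstream of 1 of the 2 annotated 5' ends of rpl-19. It is not in the 500 bases upstream of the outermost 5' end of rpl-19, so it is not upstream of the whole gene. Only replicate 2 has a summit within 100 bp of it. The other 5 are nearest npp-3, eel-1, ife-3, oma-2 and fubl-3. Of the 10, 3 have an optimal summit within 100 bp, at rpl-22, rpl-11.2 and npp-3.

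Most occurrences of the 7-base word lay away from optimal summits. It occurs 4156 times in the 6 chromosomes, and 37 of these (0.89%) lie within 100 bp of an optimal summit. In the 500 bases upstream of the outermost 5' end it was found at 12 of 47 rpl genes (25.5%), against 2.58% of all protein-coding genes, 4 of 31 rps genes (12.9%) and 3 of 41 mrpl genes (7.32%). The count was 7 of 27 rpl genes with an optimal peak (25.9%) and 5 of 20 without one (25%). The third word of the ranking, CTGAGTA, was found upstream of 8 of 47 rpl genes (17%), 6 of 31 rps genes (19.4%), none of the 41 mrpl genes and 2.62% of all genes. It was upstream of 5 of 27 rpl genes with an optimal peak (18.5%) and 3 of 20 without one (15%). Both words were chosen at the optimal summits of rpl genes, so among rpl genes only those without such a peak took no part in the choice.

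Genes of the small cytosolic subunit, named rps, were also often bound. Of 31 rps genes 15 (48.4%) had an optimal summit within 1000 bp, with a median position of -296 bp and a median signal of 156, and 10 of the 15 summits (66.7%, the same share as for rpl) lay 251 to 500 bp upstream. The highest rps signals were 526 at rps-12, 362 at rps-1 and 353 at rps-19. The rpl and rps shares of bound genes were not tested against each other. The share over all protein-coding genes was 6.08%. Of the 41 mrpl genes, whose proteins serve the mitochondrial large subunit, 8 (19.5%) were bound, with a median position of -174.5 bp and a highest signal of 191 at mrpl-28. None of the 8 had the summit 251 to 500 bp upstream.

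Further large-subunit genes outside the rpl- names were rla-0, rla-1 and rla-2 of the stalk and ubq-2, a fusion of ubiquitin with a ribosomal protein. Only ubq-2 was bound, with a signal of 160 at 490 bp upstream, and all 4 had a pooled entry. Of all protein-coding genes, 6.08% were bound and 25.16% had a pooled entry. Of 10 genes for ribosome assembly and RNA polymerase I, 2 (20%) were bound, pro-1 (signal 244) and fib-1 (signal 153), the latter encoding the nucleolar methyltransferase fibrillarin. Their summits lay 168 and 76 bp upstream.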

How the data were processed

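Peaks came from 4 narrowPeak lists in ce11, made by the authors from the alignments of each replicate and of both together against 1 control, per the text deposited with the samples. The signal value of each peak is that of the authors' caller, as deposited. The deposited −log10 q-value was not used to rank peaks. No label or file header names the caller or aligner. The 4 ce10 lists were not used, since no ce10 annotation was at hand.

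Genes and 5' ends came from Ensembl release 115 (WBcel235, the same assembly as ce11) and sequence from the RefSeq copy. A summit is column 2 plus column 10. Placement was tested on simulated summits. Every bound member is named, and members without an optimal peak are named by replicate support with values for the highest. Members, lists and motifs were chosen with earlier results of these data known. Alternatives were the window, the 5' end used, the side, peak overlap in place of the summit, a stricter list and each replicate alone. Python 3.11.15, NumPy 2.4.6 and matplotlib 3.10.9 were used.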

Additional observations from a re-analysis of the deposited data

How the results depend on the processing

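The count of rpl genes with an optimal summit (27) ranged from 24 to 29 when a replicate was left out, and was 6 with a 250 bp window and 17 when only the gene with the nearest 5' end was counted. All protein-coding genes went from 1214 to 569 with the 250 bp window and to 640 in the stricter list, the 50% of optimal peaks with the highest signal, where the rpl count was 18 (38.3%, against 3.2%). Without either replicate they ranged from 1158 to 1256. The median rank percentile of rpl peaks, where 100 is the highest signal, was 59.8, and was 50.4 within that stricter list and 57.2 to 64.8 with a replicate left out. The median position was -330 bp, and was -280.5 bp in the stricter list, -291 bp for nearest genes only, and -306 to -288 bp with a replicate left out. The percentile of 50.4 was computed among the peaks of the stricter list alone, so it is not on the same scale as 59.8. The cause of the other shifts was not tested. The other alternatives moved each of these values by less than 1.5 times for counts or by less than the spread between replicates for medians. The pooled-list count of rpl genes (43) was 42 to 43 with a replicate left out and 36 with a 500 bp window. No paired analysis was possible because the 2 samples form 1 group. Read depth is unknown, so the absence of an optimal peak says only that no signal passed the authors' threshold.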
